A study of Mus musculus with 6 samples.

Results

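Integrins are receptors made of an alpha and a beta chain that hold cells to the extracellular matrix, and laminins are trimers of an alpha, a beta and a gamma chain that build the basement membrane. The genes described here are every protein-coding gene whose symbol names an integrin alpha chain (Itga), an integrin beta chain (Itgb) or a laminin chain (Lama, Lamb, Lamc), chosen by symbol and not by any measured value. They number 37 of 54532 genes listed, with 26 integrins and 11 laminins. The data are RNA-seq read counts from YAMC cells, a wild-type, conditionally immortalised line labelled as colonic epithelium of young adult mice, whose SV40 large T antigen is the temperature-sensitive tsA58 form driven by the interferon-inducible H-2Kb promoter. All 6 libraries came from cells grown at 33 °C with interferon-gamma, as 3 libraries of cells given 2'-fucosyllactose (2'-FL), a human milk oligosaccharide, at 20 µg/ml for 6 h and 3 libraries of untreated controls, for which no time is given. All are 1 cell line, and since separate cultures are not named for the replicates, the p-values cover only the spread among these 6 samples, possibly technical.

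An integrin heterodimer takes its ligand from the pairing of its chains. Pairs of Itgb1 with Itga3, Itga6 or Itga7 bind laminin, as does the pair of Itgb4 with Itga6. Pairs of Itga5, Itga8 or Itgav recognise the RGD sequence of fibronectin, vitronectin and latent TGF-beta. Pairs of Itga1, Itga2, Itga10 or Itga11 bind collagen, and the Itgb2 and Itgb7 pairs belong to leukocytes. In the gut, laminin with the Lama5 chain is known as a main laminin of the epithelial basement membrane, and the Itga6 and Itgb4 pair anchors epithelial cells in hemidesmosomes.

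Total counts ran from 19978583 to 25251187 per library, and the 37 genes together took 0.464 to 0.493% of them. Levels are given as CPM, the counts of a gene per 1000000 counts of its library. Keratins of simple epithelia were present, Krt8 at 307 CPM, Krt18 at 271 CPM and Krt19 at 392 CPM, but 11 of 14 colonic epithelium markers averaged under 1 CPM, and Cdx1, Cdx2, Slc26a3 and Car1 had 0 counts. The summed level of that list was 949 to 1172 CPM with 2'-FL and 849.6 to 969 CPM in controls. Of 10 fibroblast markers, 7 averaged at least 1 CPM, with sums of 7171 to 8154 CPM with 2'-FL and 6762 to 6883 CPM in controls, carried mostly by Col1a1 and Col3a1, and only 4 of the 10 had a higher mean with 2'-FL. Of 8 smooth muscle markers, 8 had higher means with 2'-FL, beside 48.4% of all genes tested with log2 fold changes above 0. Their sums were 356 to 599.6 CPM against 269.6 to 331 CPM, most of it Acta2 at means of 336 and 168 CPM. Myh11 and Actg2 averaged under 1 CPM and were not tested. Of the 6 tested, 0 had an edgeR adjusted p under 0.05. Endothelial markers (6 of 8 under 1 CPM, Emcn at 0 counts) summed to 15.6 to 19.1 CPM against 13.5 to 19.9 CPM. Most of that sum was Tek, at a mean of 11.8 CPM. Schwann cell markers (5 of 6 under 1 CPM, Foxd3 at 0 counts) summed to 84.2 to 88.0 CPM against 79.6 to 91.2 CPM. Nearly all of this was Mbp, at a mean of 84.5 CPM. In bulk RNA, fewer cells of a type and less RNA per cell cannot be told apart. On the first principal component 2'-FL replicate 2 lay farthest out, and on the second control replicate 1.

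Sequences upstream of the start site are printed for 4 genes at opposite ends of the range of levels: Itgb1 and Lama5, the most abundant integrin and laminin transcripts, and Itga8 and Itgam, with 7 counts and 1 count in all 6 libraries together. Each line gives the 120 bases just before the RefSeq start site on GRCm38.p6, 5′ to 3′ on the gene's own strand, with CpG dinucleotides in capitals. The windows are chr8:128685534-128685653 (plus strand) for Itgb1, chr2:180225860-180225979 (minus strand) for Lama5, chr2:12301945-12302064 (minus strand) for Itga8 and chr7:128062520-128062639 (plus strand) for Itgam.
Itgb1: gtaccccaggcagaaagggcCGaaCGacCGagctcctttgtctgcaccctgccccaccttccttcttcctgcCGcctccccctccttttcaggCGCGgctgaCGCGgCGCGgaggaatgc
Lama5: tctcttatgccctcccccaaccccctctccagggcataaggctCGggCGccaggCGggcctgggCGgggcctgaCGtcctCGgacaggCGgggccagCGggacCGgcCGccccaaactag
Itga8: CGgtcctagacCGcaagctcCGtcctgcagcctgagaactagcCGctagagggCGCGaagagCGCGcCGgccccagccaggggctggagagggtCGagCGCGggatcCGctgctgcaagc
Itgam: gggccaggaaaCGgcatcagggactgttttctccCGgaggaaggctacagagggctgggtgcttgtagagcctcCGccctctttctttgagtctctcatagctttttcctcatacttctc
The windows hold 10 CpG in Itgb1, 10 in Lama5, 13 in Itga8 and 3 in Itgam, so a CpG-rich upstream sequence was found at both ends of the range.

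The RefSeq promoter table matched 23 of the 37 genes, and where it gave more than 1 start site the first listed was used. Over the 250 bases upstream, the 10 matched genes at 10 CPM or more had a median of 16 CpG, with Lamb2 lowest at 3 and Itga3 highest at 22. The 9 matched genes under 1 CPM had a median of 10 CpG, while the 4 matched genes from 1 to 10 CPM had a median of 2, and the median over 32851 promoters in the table was 6. The GC box GGGCGG, searched on both strands (the reverse strand reads CCGCCC), was present in 6 of the 10 abundant genes, in 0 of the 4 genes from 1 to 10 CPM, in 2 of the 9 genes under 1 CPM and in 32.7% of all promoters of that length. A match is a run of letters and no measure of binding.

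Levels of different genes are compared per length, as CPM divided by the gene length in kilobases (RPKM), with the length taken from the deposited files. Each mean is given with its SD over 6 libraries. The length joins all annotated exons of a gene, whichever transcripts the cells make, so orders, shares and ratios depend on it and the SD does not cover that. In CPM, for example, Itgav at 511 stood above Itga3 at 449. Of the 37 genes, 17 averaged at least 10 CPM, 7 lay between 1 and 10 CPM, 10 had some counts but under 1 CPM, and 3 had 0 counts. The beta chain Itgb1, partner of most alpha chains, stood far above the rest at 349 ± 15.3 RPKM. The laminin-binding alpha chain Itga3 followed at 78.7 ± 4.74 RPKM, then the RGD-type alpha chain Itgav at 47.6 ± 2.19 RPKM and its partner Itgb5 at 39.7 ± 1.46 RPKM. The ranges of these 4 did not meet from one to the next over the 6 libraries.

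**Figure D1:**
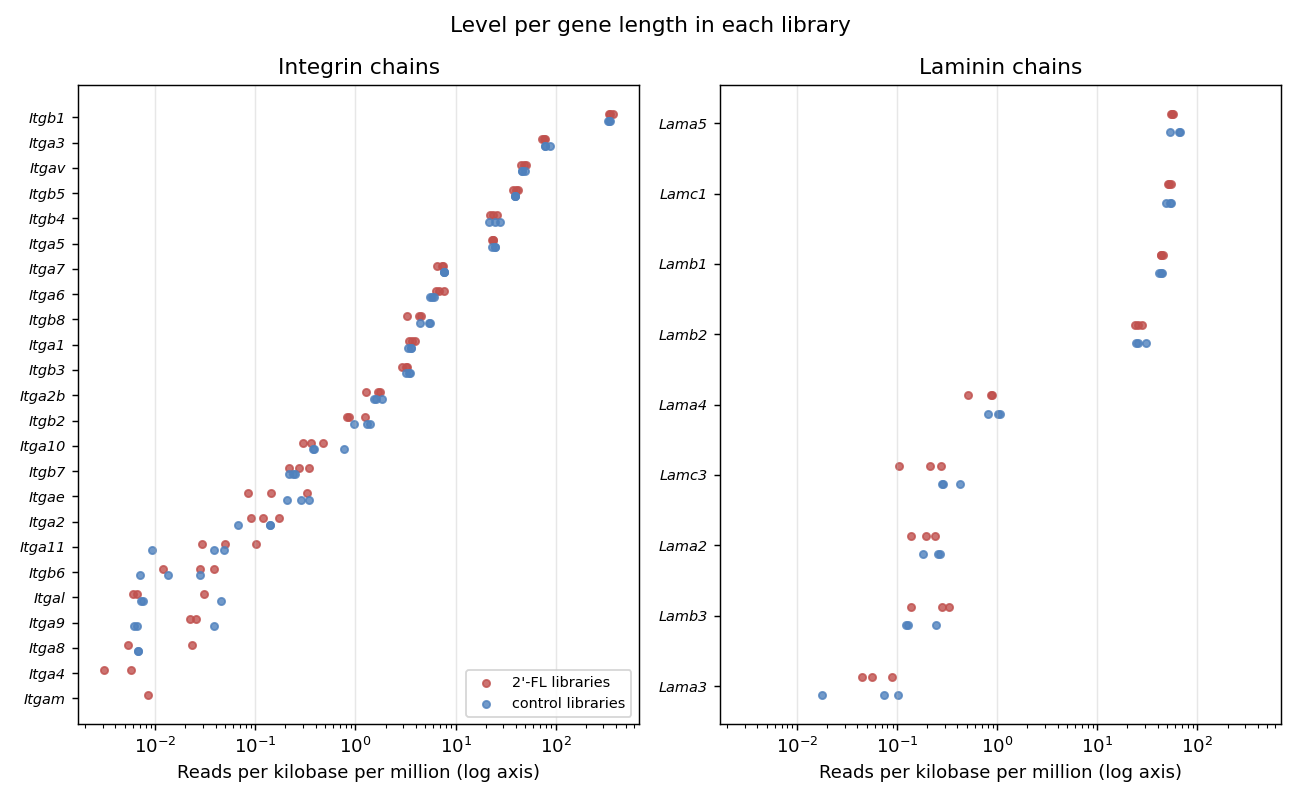
Level of integrin chains (left) and laminin chains (right) with at least 1 count, in RPKM on a log axis, with 1 point per library (red, 2'-FL; blue, control); libraries with 0 counts of a gene are not drawn. Itgb1 stands highest at 349, and 4 laminin chains (Lama5, Lamc1, Lamb1 and Lamb2) stand well above the other 5 drawn.

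Below them Itgb4, the beta chain of hemidesmosomes, and Itga5, the fibronectin receptor alpha chain, had 24.3 ± 2.49 and 23.9 ± 0.763 RPKM, and their ranges overlapped. The laminin-binding chains Itga7 and Itga6 had 7.36 ± 0.427 and 6.40 ± 0.740 RPKM, again with overlapping ranges. Itgb8, which with Itgav binds latent TGF-beta, had 4.58 ± 0.827 RPKM, the collagen-binding chain Itga1 had 3.58 ± 0.205 RPKM and Itgb3, partner of Itgav and Itga2b, had 3.26 ± 0.213 RPKM. Each of these 3 overlapped its neighbour in the order. Itga2b, known as the platelet alpha chain, was at 1.61 ± 0.198 RPKM and the leukocyte beta chain Itgb2 at 1.09 ± 0.242 RPKM.

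Among alpha chains, Itga3 made up 46.3 ± 2.01% of the level per length, Itgav 28.0 ± 1.42% and Itga5 14.0 ± 0.288% (SD, n = 6). Among beta chains, Itgb1 made up 82.6 ± 1.31%, Itgb5 9.42 ± 0.404% and Itgb4 5.78 ± 0.709% (SD, n = 6). Itgb1 alone was 2.08 ± 0.117 times the sum of the 12 alpha chains it is known to pair with (SD, n = 6), with ratios of 2.15 ± 0.0885 in 2'-FL libraries against 2.00 ± 0.0991 (SD, n = 3 each). Itgb4 was 3.87 ± 0.720 times its sole partner Itga6 (SD, n = 6). These are ratios of transcripts, and the receptor proteins were not measured.

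Of 24 known integrin pairs, 12 had both chains at 1 CPM or more in every library. These included 4 of 4 laminin-binding pairs, 6 of 8 RGD-type pairs and 2 of 4 collagen-binding pairs, and 0 of 8 pairs of leukocyte type, among which the Itga4 and Itga9 pairs are counted. Ranked by the scarcer chain per length, the leading pairs were Itga3 with Itgb1, Itgav with Itgb1, Itgav with Itgb5 and Itga5 with Itgb1. The collagen receptor chains Itga2 and Itga11 averaged 0.865 and 0.236 CPM, and Itgb6, the epithelial partner of Itgav, 0.151 CPM. Itgae, known from intraepithelial lymphocytes, averaged 1.06 CPM and its partner Itgb7 0.710 CPM.

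Several leukocyte chains had few counts or none. Itgal had 14 counts and Itgam 1 count over 6 libraries, and Itgad and Itgax had 0 counts, which allows up to 0.0231 CPM over the 6 libraries together (3 counts, counting error only). The other scarce integrins were Itga9 with 17 counts, Itga8 with 7 and Itga4 with 3. A gene model of another name, with 0 counts, shares 68.7% of the exon bases of Itgam on the same strand. How reads in those bases were counted is not known, so the 1 count of Itgam may be too low. Of 12 leukocyte markers, 10 averaged under 1 CPM, and Cd3e, Cd4, Cd8a and Tyrobp had 0 counts and Ptprc 4. The summed level of those markers was 10.4 to 13.2 CPM with 2'-FL and 11.4 to 14.1 CPM in controls, most of it Cd14 at 10.6 CPM. Beside Itga2b at 8.80 CPM, the 8 markers of megakaryocytes and platelets all averaged under 1 CPM, with sums of 0.554 to 1.30 CPM against 0.600 to 1.66 CPM, and Gp1bb, Treml1 and Gp6 had 0 counts.

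The laminin chains formed 1 abundant set. Lama5, at 58.8 ± 5.59 RPKM, and Lamc1, at 52.5 ± 2.51 RPKM, had overlapping ranges, followed by Lamb1 at 43.5 ± 1.56 RPKM and Lamb2 at 26.3 ± 2.51 RPKM (SD, n = 6). Lama4, an alpha chain known from vessels and mesenchyme, was far lower at 0.861 ± 0.197 RPKM. Lama5 made up 98.1 ± 0.318% of the alpha chains and Lamc1 96.5 ± 0.311% of the gamma chains, while Lamb1 and Lamb2 shared the beta chains at 62.2 ± 2.24% and 37.5 ± 2.36% (SD, n = 6).

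Summed per length, the alpha, beta and gamma classes stood at 59.9 ± 5.67, 70.1 ± 2.96 and 54.4 ± 2.47 RPKM (SD, n = 6). The beta class was the highest of the 3 in every library. Its range of 66.8 to 75.2 RPKM did not meet that of the gamma class, 50.6 to 56.9 RPKM. Of 15 laminin trimers examined, 7 had each chain at 1 CPM or more in every library, led by Lama5 with Lamc1 and either Lamb1 or Lamb2. The scarce chains Lamb3 and Lama3 averaged 1.36 and 0.684 CPM. Lama1, an embryonic laminin chain, had 0 counts, and Lama2 and Lamc3 averaged 3.48 and 1.60 CPM.

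Among the 17 genes at 10 CPM or more, Itga5 varied least between libraries, with a coefficient of variation of 3.20%, and Itgb8 and Lama4 most, with 18.1% and 22.9%. In this set the highest library was between 1.08 times the lowest, in Itga5, and 2.10 times, in Lama4. Control replicate 3 was the highest library for 8 of the 17 and 2'-FL replicate 2 for 5, and 2'-FL replicate 2 was also the lowest for 5.

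The comparison of the groups asks whether 2'-FL changed these transcripts. After a filter on low counts, 27 of the 37 genes were tested, and edgeR's quasi-likelihood test called 0 of them at an adjusted p under 0.05, against 0% of 14129 genes called in all. Adjusted p-values of the 27 ran from 0.486 to 0.994 (edgeR, Benjamini-Hochberg over all genes). At an unadjusted p under 0.05 there were 2 of the 27, or 7.41%, against a background of 7.9% of all genes tested: Itga6 higher and Itgb8 lower. DESeq2 called 0 of the 20 to which it gave an adjusted p (7 had none), against 0.325% of all genes with an adjusted p. The limma-voom test called 0 of the 27 against 0%. DESeq2 and limma-voom put 2 and 3 of the 27 at an unadjusted p under 0.05, and for these counts the share over all genes was not counted.

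Log2 fold changes (2'-FL minus control) were above 0 in 11 of the 27, or 40.7%, against 48.4% of all genes tested, and their median was -0.04, against -0.0056 over all genes tested. The 3 genes whose groups did not overlap, Itga6, Itga7 and Lamc3, made 11.11% of the 27, against a background of 13%. With 2'-FL above there was 1 of the 27, against 6.12% of all genes, and with 2'-FL below there were 2, against 6.85%. Each of these shares is near or under that of all genes.

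**Figure D2:**
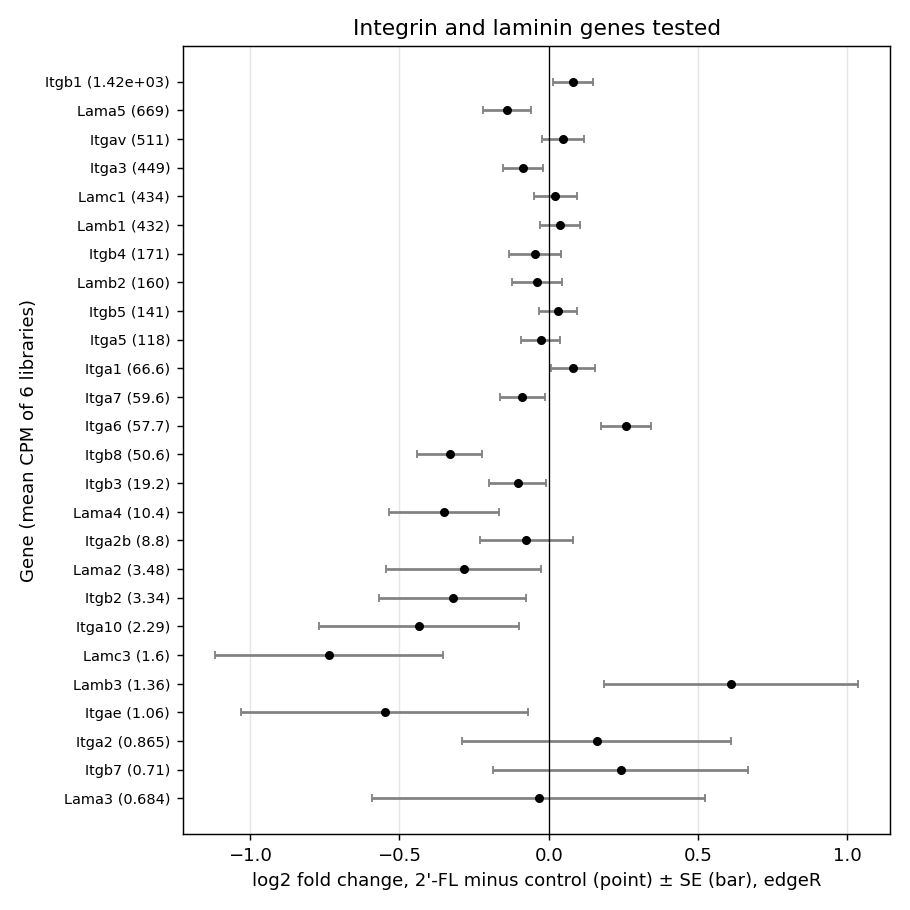
Log2 fold changes of tested integrin and laminin genes, 2'-FL minus control (point) with its standard error (bar), from edgeR, ordered by mean CPM, which stands beside the symbol. Abundant genes lie close to 0, Itga6 and Itgb8 lie more than 2 standard errors from it, and the widest bars belong to genes near 1 CPM.

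Itga6, an alpha chain of laminin receptors on chromosome 2 (71745616 to 71858416, plus strand, GRCm38), stood at 57.5, 68.6 and 62.0 CPM in 2'-FL replicates 1 to 3 and at 55.6, 50.5 and 52.3 CPM in control replicates 1 to 3. The 2'-FL libraries were all above the controls, with 2'-FL replicate 2 highest and less than 2 CPM between the nearest libraries of the groups. Means were 62.7 ± 5.58 and 52.8 ± 2.59 CPM (SD, n = 3 each). The log2 fold change of 0.26 ± 0.08 (SE) did not pass (edgeR adjusted p = 0.486, unadjusted p = 0.0077). Without 2'-FL replicate 2 it was 0.18 ± 0.08 (SE, edgeR adjusted p = 0.969), and adjusted p-values over all alternatives ran from 0.136 to 0.969.

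Of its beta partners, Itgb4 did not share that order of libraries, while Itgb1 shared it in part. For Itga6 and Itgb1 alike, 2'-FL replicates 2 and 3 were highest and control replicates 2 and 3 lowest, but the groups of Itgb1 overlapped. Itgb4 stood at 183, 154 and 166 CPM with 2'-FL and at 151, 173 and 197 CPM in controls, with overlapping groups and its lowest value in control replicate 1. Its log2 fold change was -0.04 ± 0.09 (SE). Itgb1 stood at 1399, 1536 and 1442 CPM with 2'-FL and at 1421, 1389 and 1355 CPM in controls, highest in 2'-FL replicate 2 as Itga6 was, with a log2 fold change of 0.08 ± 0.07 (SE). The ratio of Itgb4 to Itga6 per length was 4.09, 2.89 and 3.44 with 2'-FL and 3.51, 4.41 and 4.85 in controls, so the groups overlapped.

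Itgb8, the TGF-beta-binding partner of Itgav, on chromosome 12 (119158022 to 119238802, minus strand), stood at 50.5, 36.4 and 47.4 CPM with 2'-FL and at 48.5, 60.3 and 60.9 CPM in controls. The groups overlapped, with 2'-FL replicate 1 above control replicate 1 and 2'-FL replicate 2 lowest. Means were 44.7 ± 7.41 and 56.6 ± 7.01 CPM (SD, n = 3 each). The log2 fold change of -0.33 ± 0.11 (SE) did not pass (edgeR adjusted p = 0.496, unadjusted p = 0.0088). Without 2'-FL replicate 2 it was -0.21 ± 0.10 (SE, edgeR adjusted p = 0.959), and adjusted p-values over all alternatives ran from 0.0319 to 0.959, under 0.05 only where no filter on low counts was used. The summed smooth muscle markers, which did not overlap between the groups (356 to 599.6 against 269.6 to 331 CPM), were higher with 2'-FL as Itga6 was, while Itgb8 was lower, and their part in these values was not tested.

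**Figure D3:**
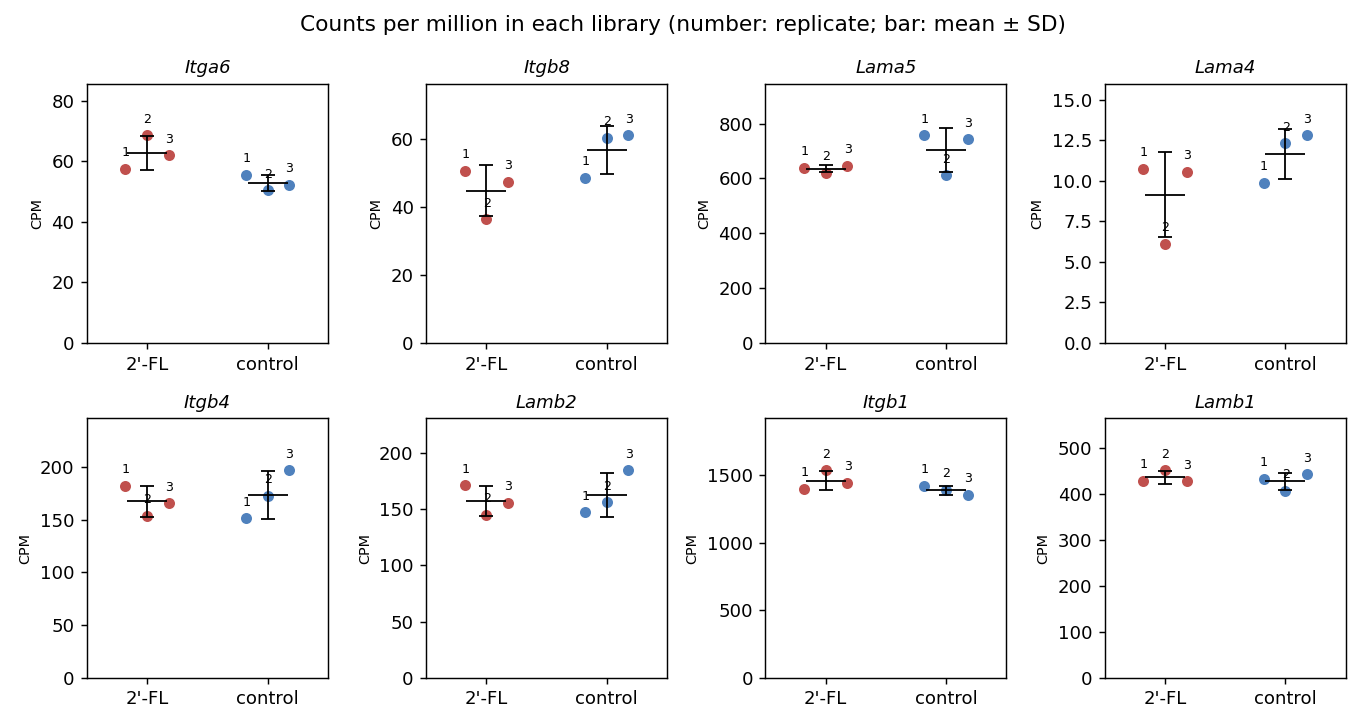
CPM (linear axes from 0) of 8 integrin and laminin genes in each library, numbered by replicate (red, 2'-FL; blue, control), with the mean and SD of each group in black. Itga6 is above the controls in all 3 2'-FL libraries, while the groups overlap for the other 7 genes drawn.

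The remaining receptor chains at 10 CPM or more had log2 fold changes between -0.10 and 0.08, each under 1.5 times its standard error, with overlapping groups except for Itga7. Itga3 stood at 449, 418 and 437 CPM with 2'-FL and at 448, 445 and 499.5 CPM in controls, and Itga7, a laminin-binding chain known from muscle, at 58.7, 60.9 and 52.9 CPM against 61.5, 61.6 and 61.8 CPM. All 3 2'-FL values of Itga7 lay below the controls, the nearest by less than 1 CPM, with a log2 fold change of -0.09 ± 0.07 (SE). For Itga3 the value was also -0.09, ± 0.07 (SE).

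Among RGD-type receptors, Itgav stood at 489, 549 and 516 CPM with 2'-FL and at 526, 493 and 496 CPM in controls, and Itga5 at 118, 118 and 113 CPM against 123, 114 and 121 CPM. Itgb5 stood at 149, 144 and 134 CPM against 139, 141 and 141 CPM, and Itgb3 at 19.4, 17.1 and 19.0 CPM against 19.0, 20.4 and 20.6 CPM. The groups overlapped in all 4, and log2 fold changes were 0.05 ± 0.07, -0.03 ± 0.06, 0.03 ± 0.06 and -0.10 ± 0.10 (SE). The collagen receptor chain Itga1 stood at 63.5, 68.7 and 72.5 CPM against 61.8, 66.1 and 67.0 CPM, with overlapping groups and a log2 fold change of 0.08 ± 0.07 (SE).

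Integrins under 10 CPM had larger values with larger errors. Log2 fold changes were -0.08 ± 0.16 for Itga2b, -0.32 ± 0.25 for Itgb2, -0.43 ± 0.33 for Itga10, -0.55 ± 0.48 for Itgae, 0.16 ± 0.45 for Itga2 and 0.24 ± 0.43 for Itgb7 (SE). None of these is beyond 1.5 standard errors. A gene model of another name shares 33.5% of the exon bases of Itga10, and its reads numbered 2.

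Of the laminins, Lama5, the chain that dominates the alpha class, on chromosome 2 (180176373 to 180225859, minus strand), stood at 638, 621 and 646 CPM with 2'-FL and at 757, 611 and 742 CPM in controls. Control replicates 1 and 3 were above all 2'-FL libraries and control replicate 2 below them. It had a log2 difference of -0.14 ± 0.08 (SE, edgeR adjusted p = 0.718). Without control replicate 2 this was -0.24 ± 0.07 (SE, edgeR adjusted p = 0.221) and without control replicate 1 it was -0.07 ± 0.09 (SE, edgeR adjusted p = 0.903), and adjusted p-values over the alternatives ran from 0.221 to 0.9995.

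Its usual partners were level between groups. Lamc1 stood at 419, 455 and 435 CPM with 2'-FL and at 453, 401 and 442 CPM in controls, and Lamb1 at 429, 452 and 428 CPM against 433, 406 and 443 CPM. Log2 fold changes were 0.02 ± 0.07 and 0.04 ± 0.07 (SE), in each case with overlapping groups. Lamb2 stood at 171, 145 and 156 CPM against 147, 156 and 185 CPM, with a log2 fold change of -0.04 ± 0.08 (SE).

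Lamb2 and Itgb4 were highest in the same library, control replicate 3, then in 2'-FL replicate 1, and both were lowest in 2'-FL replicate 2 and control replicate 1. That likeness runs across the groups and was picked out after the values were seen, over 6 libraries only. Share of the beta class followed it, with Lamb2 making up 36.9 ± 2.60% in 2'-FL libraries against 38.2 ± 2.45% (SD, n = 3 each).

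Among the scarcer laminin chains, Lama4 stood at 10.7, 6.10 and 10.6 CPM with 2'-FL and at 9.85, 12.3 and 12.8 CPM in controls, lowest in 2'-FL replicate 2. Its log2 fold change was -0.35 ± 0.18 (SE). Lamc3 stood at 1.67, 0.634 and 1.30 CPM against 1.75, 2.56 and 1.69 CPM. The 2'-FL libraries of Lamc3 were all below the controls, but the nearest were almost level. These were 2'-FL replicate 1 at 1.672 CPM and control replicate 3 at 1.691 CPM. Their raw counts were 39 and 34, so that order rests on the library totals. The log2 fold change of Lamc3, -0.74 ± 0.38 (SE), did not pass (edgeR adjusted p = 0.690). Lamb3, Lama2 and Lama3 had 0.61 ± 0.43, -0.28 ± 0.26 and -0.03 ± 0.56 (SE).

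The 4 lists of genes that work with these chains also had 0 genes called over all genes by edgeR. Of 34 genes of the focal adhesion, the intracellular complex that links integrins to actin, 24 had log2 fold changes above 0 and 10 below. Over all genes tested, 48.4% were above 0. The median of the list was 0.07 against -0.0056 over all genes tested. At an unadjusted p under 0.05 there were 8, 7 higher and 1 lower, against a background of 3.36% of all genes higher and 4.54% lower. The actin crosslinker Flna and the integrin activator Tln1, the most abundant, had 0.07 ± 0.09 and -0.03 ± 0.09 (SE). The smallest p-values in the list were those of Tgfb1i1, a paxillin relative, at 0.37 ± 0.12, Rsu1 at 0.20 ± 0.07 and Lims2 at 0.75 ± 0.29 (SE). Rsu1 and Lims2 are parts of the complex of integrin-linked kinase, but they were picked by p-value and do not stand for that complex as a whole. Lims2 averaged only 1.93 CPM. The smooth muscle marker sums were also higher in all 2'-FL libraries, and their part in this list was not tested.

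**Figure D4:**
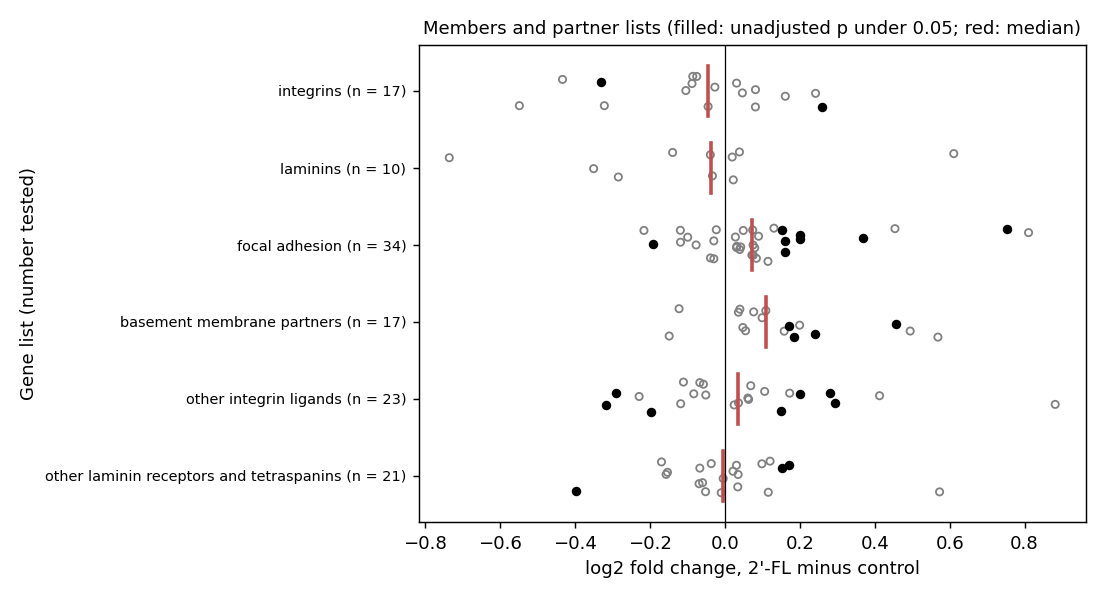
Log2 fold changes, 2'-FL minus control, of tested integrins, laminins and 4 lists of genes that work with them, 1 point per gene (filled where the unadjusted edgeR p is under 0.05), with each list's median in red. Medians are -0.04 for integrins and for laminins, 0.07 for focal adhesion genes and 0.11 for basement membrane partners; points are spread vertically at random for legibility.

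Of 23 basement membrane partners of laminin, 17 were tested, 15 with log2 fold changes above 0 and 2 below, beside 48.4% of all genes tested above 0. The median of the 17 was 0.11. At an unadjusted p under 0.05 there were 4, all higher, against 3.36% of all genes tested. Sparc, a collagen-binding matrix protein, stood at 3531, 3797 and 3508 CPM with 2'-FL and at 3092, 3413 and 3196 CPM in controls, with a log2 fold change of 0.17 ± 0.07 (SE). The groups did not overlap. The proteoglycan perlecan, Hspg2, had -0.12 ± 0.11, nephronectin, Npnt, a ligand of the Itga8 and Itgb1 pair, 0.24 ± 0.09, and the collagen IV chain Col4a4 0.46 ± 0.17 (SE). The laminin chains had 4 of 10 values above 0 beside 15 of 17 in this list. Genes of a list may vary together and are not independent, and the difference between the lists was not tested. Fibroblast marker sums were also above the controls in all 2'-FL libraries (7171 to 8154 against 6762 to 6883 CPM), though 6 of the 10 markers did not have a higher mean with 2'-FL, and their part in this list was not tested.

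Of 33 other integrin ligands, 23 were tested, 13 above 0 and 10 below, with a median of 0.04, and 7 had an unadjusted p under 0.05, 4 higher and 3 lower, against 3.36% and 4.54% of all genes tested. Fibronectin, Fn1, the ligand of the Itga5 and Itgb1 pair, stood at 4779, 4871 and 4872 CPM with 2'-FL and at 5868, 5210.4 and 5671 CPM in controls. All 3 2'-FL values lay below the controls, and the log2 difference was -0.20 ± 0.07 (SE) at an edgeR adjusted p of 0.503. Osteopontin, Spp1, had -0.32 ± 0.08, Vcam1, a ligand of Itga4 pairs, -0.29 ± 0.10, the matricellular ligand Cyr61 0.28 ± 0.09 and the collagen chain Col1a1, also among the fibroblast markers, 0.17 ± 0.09 (SE), and none passed.

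Of 21 other laminin receptors and tetraspanins, all tested, 10 were above 0 and 11 below, with a median of -0.0045. At an unadjusted p under 0.05 there were 3, against 7.9% of all genes tested. The basal cell adhesion molecule Bcam, a receptor of Lama5, had 0.17 ± 0.07, the syndecan Sdc1 0.15 ± 0.06 and Dst, a linker of hemidesmosomes to the cytoskeleton, -0.40 ± 0.15 (SE). Dst was highest in control replicate 1, at 722 CPM, while the other controls had 404 and 556 CPM and the 2'-FL libraries 402 to 455 CPM, so the groups overlapped. Its log2 difference was -0.16 without control replicate 1 and -0.59 without control replicate 2. The abundant Rpsa and Sdc4 had 0.02 ± 0.07 and -0.07 ± 0.08 (SE).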

How the data were processed

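Total RNA of 6 libraries was sequenced after a NEBNext Ultra II RNA preparation, per the labels' protocols. The treatment protocol text names 2'-FL for all 6 samples. The groups were taken from the sample titles, which match the treatment label of each sample. Tools listed in the submitters' processing notes are Bowtie2 (version given as 2.7.3a), FastQC 0.11.9 and bcl2fastq, and the build listed is GRCh38. The deposited genes are mouse, and 98.26% of those found in GENCODE's GRCm38 annotation have the same position there, all 37 integrin and laminin genes included. Neither the counting program nor its use of strand is named in the labels or notes, so overlapping genes cannot be told apart. Of the 37 genes, 12 share exon bases with another gene model, 2 of them over 10% (Itga10 and Itgam).

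The deposited values are unnormalized whole-number counts for each gene, as the authors left them, and the deposited gene length (another value, equal to the GENCODE exon length in all 37 genes) was used for RPKM. CPM and RPKM use the library total. In R 4.3.3, edgeR 4.0.16 (filterByExpr with a minimum count of 10, TMM, glmQLFit and glmQLFTest, Benjamini-Hochberg over 14129 genes, threshold 0.05) compared 2'-FL with control; TMM factors ran from 0.982 to 1.01. Each standard error is the absolute log2 fold change over the square root of F. The test was checked on simulated counts, with changed genes drawn at random from those tested. It recovered 12 of 50 genes changed 1.25-fold, 37 of 50 at 1.5-fold, 40 of 50 at 2-fold and 46 of 50 at 3-fold. All pairs of libraries differed by more than sampling noise. Alternatives were other scalings, filters, DESeq2 1.42.0, limma-voom (limma 3.58.1), robust estimation, a replicate block and each library left out; leaving out both libraries farthest out on the principal components was chosen after the data were seen. The genes, lists and tests were chosen with earlier results of these data known. All tested genes of the rule are named except 1 that is not reported here, and of each list the 2 most abundant and the 3 with the smallest p.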

Additional observations from a re-analysis of the deposited data

How the results depend on the processing

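The count of integrin and laminin genes called was 0 in all alternatives run except without a filter on low counts, where it was 1 (Itgb8, edgeR adjusted p = 0.0319). Without a filter the prior degrees of freedom were infinite, so every gene took the spread of the trend. Over all genes the count was 158 without a filter, 37 by DESeq2, 5 with robust estimation, and 0 to 28 with 1 library left out, being 21 without 2'-FL replicate 1 and 28 without control replicate 2. With the replicate block it was 1. Deviations of same-numbered libraries had correlations of -0.12, -0.068 and -0.051, and those of differently numbered libraries ran from -0.048 to 0.11. The labels do not say that the numbers mark a pairing, and with 3 libraries per group these values cannot decide it. At an unadjusted p under 0.05 the integrin and laminin genes numbered 2 to 5 with 1 library left out (5 when 2'-FL replicate 1 was left out) and 4 with no filter. The share of all genes at that level was not counted under these settings, so nothing about the integrin and laminin genes is read from them.

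Itga6 stayed above 0 (0.18 to 0.32) and Itgb8 below 0 (-0.42 to -0.21) in all 16 alternatives. Of 413 log2 fold changes of 26 integrin and laminin genes under alternatives, 20 had the other sign. Lama3 was 0.23 by limma-voom, 0.086 with the replicate block and 0.29 without both libraries farthest out. With 1 library left out, log2 fold changes ranged from -0.49 to 0.46 for Lama3, -0.18 to 0.057 for Itga2b, -0.035 to 0.068 for Lamc1, -0.0095 to 0.093 for Itgav, -0.13 to 0.060 for Itgb4, -0.098 to 0.067 for Lamb2, -0.15 to 0.36 for Itga2, -0.067 to 0.0047 for Itga5 and -0.0032 to 0.070 for Lamb1. Among partner genes they ranged from -0.12 to 0.039 for Tln1, -0.0082 to 0.069 for Rpsa, -0.013 to 0.16 for Flna, -0.16 to 0.0073 for Sdc4 and -0.25 to 0.042 for Hspg2. Of the partner genes named, Tgfb1i1, Col4a4, Cyr61, Vcam1, Spp1 and Dst were called with no filter, Col4a4 when 2'-FL replicate 1 was left out (edgeR adjusted p = 0.0489) and Dst when control replicate 2 was (edgeR adjusted p = 0.0367), while Dst had an edgeR adjusted p of 0.802 without control replicate 1 and 0.759 with robust estimation. The cause of these changes was not tested. Genes near 1 CPM had standard errors up to 0.56, so small differences in them were not detectable here.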
